A study of Homo sapiens with 8 samples.

Results

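The integrated stress response and the unfolded protein response were followed through 35 named genes among the 35238 rows of a gene count table from MP38 cells, a cultured UM line that carries mutant BAP1. The genes were taken by name from a list: 21 form an ATF4 branch, 3 encode the ER stress sensors and 11 form an XBP1 and ATF6 branch. All 35 were found, and all 35 passed the filter on low counts with between 104 and 65222 reads in each library. The study asked how UM cells respond to drugs that act on chromatin, and here the question was whether the ATF4 branch and the XBP1 and ATF6 branch moved alike. Cells had been kept for 24 h in 0.1% DMSO alone (control), in 40 nM romidepsin, in 40 nM quisinostat or in 1200 nM mivebresib, the drugs in the same 0.1% of DMSO as the control. Romidepsin and quisinostat are HDAC inhibitors, romidepsin acting mainly on class I enzymes and quisinostat on a broader range, and mivebresib is a BET inhibitor. Each of the 4 groups held 2 libraries from separate wells of the same line, so p-values measure the spread between wells of a single tumor's line.

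Cells under stress lower overall protein synthesis by phosphorylating the translation factor eIF2, and a few messages escape this block. The best known is ATF4, a transcription factor whose protein rises mainly through translation and which then switches on genes for amino acid supply, redox balance and, through DDIT3 (CHOP), cell death. When unfolded proteins build up in the ER, the sensor PERK (EIF2AK3) feeds into this route, the sensor IRE1 (ERN1) splices the XBP1 message into its active form, and ATF6 is cut to release a transcription factor. XBP1 and ATF6 then raise ER chaperones and the machinery that removes misfolded proteins. The data here are messenger RNA levels per gene, so eIF2 phosphorylation, ATF4 protein, ATF6 cleavage and XBP1 splicing were not measured.

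The libraries held 28483235 to 29359024 counts. The melanocytic identity of the line was seen in 6 of 8 melanocytic markers at 52.8 CPM or more in every library, among them MITF and SOX10, while TYR reached at most 3.51 CPM and DCT 0.180 CPM. The summed melanocytic list, mostly TYRP1 and GPNMB, ran from 5324 to 7116 CPM in control, 6145 to 6565 with romidepsin, 4810 to 5569 with quisinostat and 5012 to 5181 with mivebresib. Single markers moved more than that sum: in control, romidepsin, quisinostat and mivebresib the mean CPM was 350.1, 301, 133 and 126 for MITF, 209, 159, 110.2 and 55.0 for SOX10, and 206, 187, 99.6 and 81.8 for MLANA. Of 11 markers of fibroblasts, leukocytes and endothelium, CD3E and CDH5 had no count, CD68 had 61.1 to 83.0 CPM, and the rest stayed at or below 0.658 CPM except COL1A1. The summed fibroblast list, mostly COL1A1, ran from 1.95 to 2.34 CPM in control, 4.13 to 5.36 with romidepsin, 8.37 to 10.8 with quisinostat and 1.24 to 1.76 with mivebresib, and the part of these markers in the results was not tested. Control replicates stood apart from each other more than any drug pair did, with a chi-square per degree of freedom of 58.1 against 9.52 to 9.79. The difference fell on the members by branch: control replicate 2 exceeded replicate 1 by a median of 0.29 on the log2 scale over the XBP1 and ATF6 branch and by 0.42 over the sensors, and was lower by a median of 0.10 over the ATF4 branch, against a median of 0 over all tested genes. In bulk RNA, fewer expressing cells and less RNA per cell cannot be told apart.

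Some members carry, in the 250 bases before their start, short motifs to which these factors are known to bind. In RefSeq promoters on GRCh38.p14, available for 31 of the 35 members, both strands were searched for the ER stress response element ERSE (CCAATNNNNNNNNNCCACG), for its variant ERSE-II (ATTGGNCCACG), for the core of the CARE element bound by ATF4 with C/EBP partners (TGATGNAA) and for the core of the UPRE element bound by XBP1 and ATF6 (TGACGTGG). ERSE was found in 22 of 27305 promoters (0.0806%) and in 4 of 11 promoters of the XBP1 and ATF6 branch. ERSE-II was in 14 promoters (0.0513%) and in 2 of those 11. The CARE core was in 870 (3.19%) and in 2 of 17 promoters of the ATF4 branch, and the UPRE core was in 182 (0.667%) and in none of the members. The matches of the members described in the results are shown 5′ to 3′ along the gene's strand, with the fixed motif letters in capitals. Where the motif lies on the other strand its reverse complement is in capitals, and CALR and CRELD2 carry ERSE that way, SDF2L1 its ERSE-II, and CHAC1 and HERPUD1 the CARE core.
ASNS (CARE core, chr7:97872464-97872481, minus strand): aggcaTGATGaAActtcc
CHAC1 (CARE core, chr15:40953257-40953274, plus strand): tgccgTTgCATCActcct
XBP1 (ERSE, chr22:28800598-28800626, minus strand): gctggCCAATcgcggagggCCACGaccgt
CANX (ERSE, chr5:179698773-179698801, plus strand): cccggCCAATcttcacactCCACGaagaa
CALR (ERSE, chr19:12938364-12938422, plus strand): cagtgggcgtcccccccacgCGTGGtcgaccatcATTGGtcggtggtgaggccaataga
CRELD2 (ERSE, chr22:49918534-49918592, plus strand): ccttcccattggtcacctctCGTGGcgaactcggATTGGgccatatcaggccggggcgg
SDF2L1 (ERSE-II, chr22:21642094-21642144, plus strand): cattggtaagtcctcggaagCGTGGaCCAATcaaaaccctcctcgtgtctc
HERPUD1 (CARE core and ERSE-II, chr16:56931956-56932045, plus strand): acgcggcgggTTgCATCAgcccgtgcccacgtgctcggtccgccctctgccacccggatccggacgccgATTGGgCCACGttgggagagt
The starts are those of RefSeq, and GENCODE 29 places some of these stretches within genes. Those of ASNS, CANX and CHAC1 lie in an exon of a GENCODE 29 transcript, and that of CRELD2 lies inside the bounds of its gene but in no exon. A match is a description of these letters and not a measured binding site.

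In control cells, the ER chaperones were the most abundant members per length of exon. CANX (calnexin), the membrane chaperone of glycoproteins, had 324 CPM per kilobase, and CALR (calreticulin), its soluble relative, had 283. PSAT1, an enzyme of serine synthesis, followed at 94.9, the disulfide isomerase PDIA6 at 91.6 and ATF4 itself at 87.3. At the low end stood ERN1 at 1.30 CPM per kilobase, CTH at 1.63, STC2 at 1.66 and ALDH1L2 at 2.76. DDIT3, DDIT4 and PHGDH were nearly equal, between 5.97 and 5.99, and their order should not be read. The divisor is the union of all annotated exons, which can exceed the length of the message. It was 9217 bases for PHGDH and 1307 for DDIT3, whose mean CPM in control were 55.2 and 7.81.

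Each drug was set against the control in edgeR's quasi-likelihood test on the counts, with Benjamini-Hochberg adjustment over the 15085 tested genes, and a member is said to rise or fall where the adjusted p was below 0.05. With romidepsin, 2 members rose and 7 fell, and 26 did not pass. Of all tested genes, 15.1% rose and 15.4% fell. Quisinostat raised 6 members and lowered 9, against 28.0% of all tested genes raised and 25.0% lowered. Mivebresib raised 14 and lowered 8, against 22.1% raised and 24.0% lowered. At the study's stricter threshold, which also asks for a log2 FC beyond 1.5 in either direction, ATF5 alone was left for romidepsin and for quisinostat and ASNS alone for mivebresib, while 4.07%, 12.2% and 8.31% of all tested genes passed it. The comparisons share their control libraries and are not independent of each other. Their SE and p rest on a spread estimated over all 8 libraries, so they also draw on the drug pairs, whose replicates differed less. Fitted on only the 4 libraries compared, romidepsin raised 0 members and lowered 3. Quisinostat raised 5 and lowered 6, and mivebresib 12 and 8, in that fit. Over all genes of those fits the counts were 1393 and 1057, 3716 and 2812, and 2422 and 2760. The calls lost there were those of CEBPG, SHMT2, MTHFD2, NUPR1, CTH and EIF2AK3 with romidepsin. With quisinostat they were ATF4, CHAC1, HERPUD1 and PDIA4, and with mivebresib TRIB3 and CALR. These losses are not all repeated below.

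The counts from the fit of all 8 libraries moved with the control library used. Without control replicate 2, 8 members rose and 13 fell with romidepsin, 12 rose and 11 fell with quisinostat, and 17 rose and 11 fell with mivebresib. Over all tested genes the counts grew as well, from 2275 raised and 2328 lowered to 3183 and 3482 with romidepsin, from 4222 and 3772 to 4483 and 4368 with quisinostat, and from 3331 and 3615 to 3786 and 4121 with mivebresib. Without control replicate 1, the members' counts were 2 and 8, 5 and 10, and 16 and 10, and those of all tested genes 2280 and 2187, 4253 and 4053, and 3406 and 3694. For quisinostat the scaling of the libraries also mattered: scaled by library size alone, the median of all tested genes shifted from 0.00 to 0.20 on the log2 scale, and 12 members rose and 5 fell, while over all tested genes 5612 rose and 2125 fell instead of 4222 and 3772. Romidepsin gave 5 and 5 under that scaling, and mivebresib stayed at 14 and 8.

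**Figure D1:**
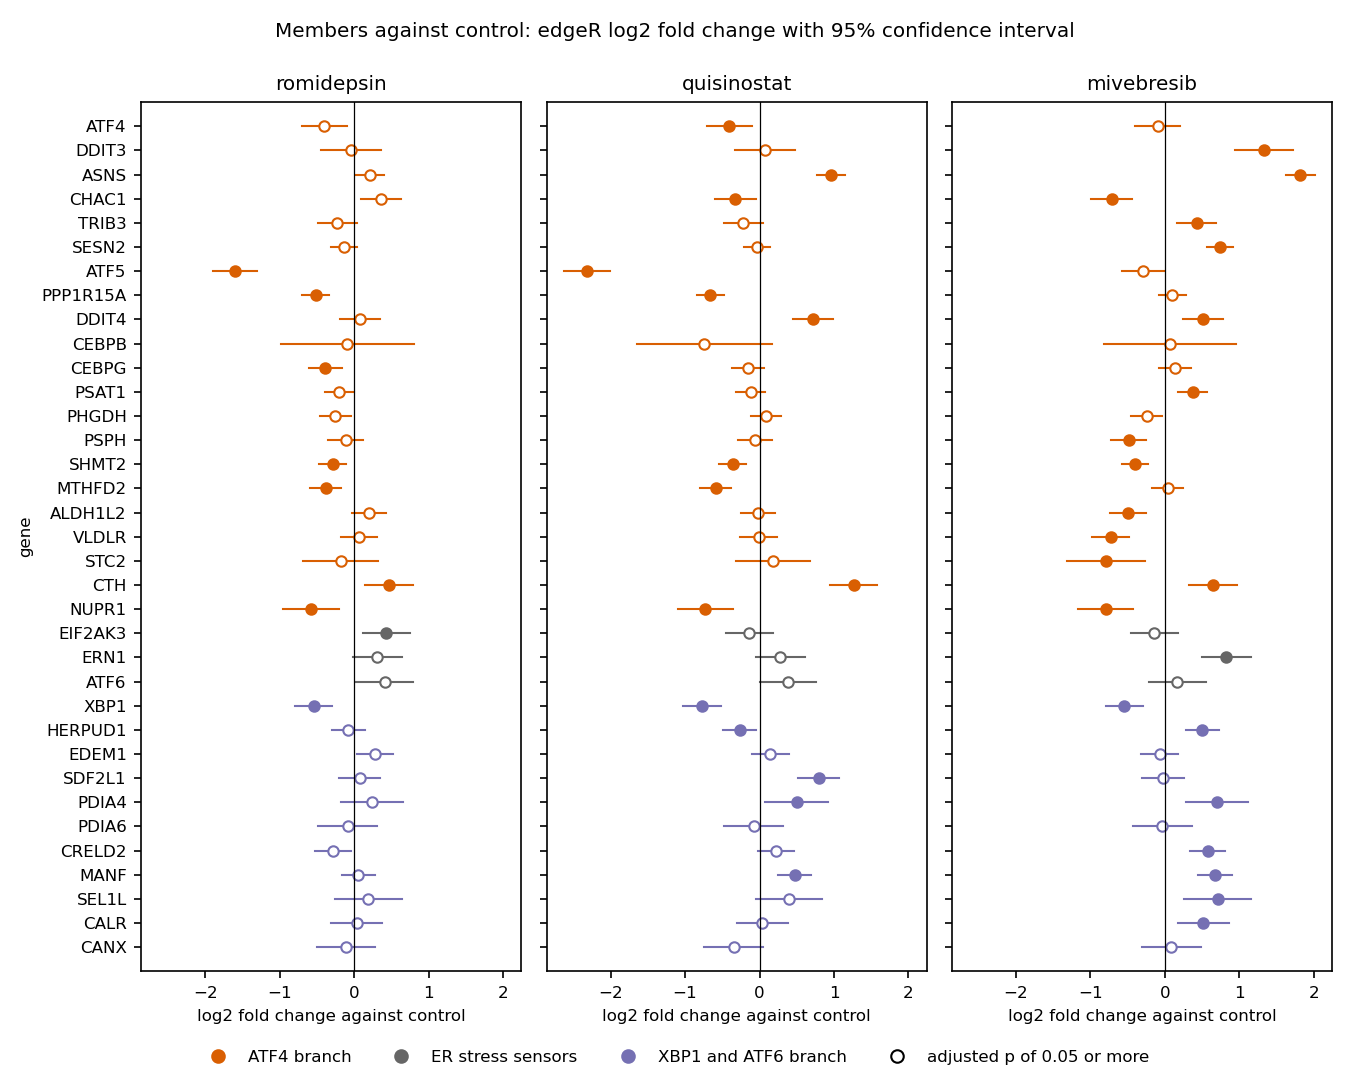
Each row is a member and each panel a drug. Points give the log2 FC against control from edgeR with its 95% confidence interval, filled where the adjusted p was below 0.05, and colors give the branch. ATF5 lies farthest to the left with both HDAC inhibitors, at -1.61 and -2.32, and ASNS and DDIT3 farthest to the right with mivebresib, at 1.82 and 1.33.

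The branches were then set side by side. In the ATF4 branch, romidepsin raised 1 of 21 members and lowered 6, with a median log2 FC of -0.18 over the branch. Quisinostat raised 3 and lowered 7, with a median of -0.12, and mivebresib raised 7 and lowered 7, with a median of 0.04. In the XBP1 and ATF6 branch, romidepsin raised none of 11 and lowered 1 (median 0.03), quisinostat raised 3 and lowered 2 (median 0.15), and mivebresib raised 6 and lowered 1 (median 0.50). Medians over all 15085 tested genes were -0.01, 0.00 and 0.01. The shares of those genes raised and lowered were 15.1% and 15.4%, 28.0% and 25.0%, and 22.1% and 24.0%. Some of the branch counts lie near these shares. The branches were not tested against each other. HERPUD1, counted here with the XBP1 and ATF6 branch, takes input from ATF4 as well, and its place decides which drug showed the widest gap between the medians. With HERPUD1 moved to the ATF4 branch the medians of the XBP1 and ATF6 branch and of the ATF4 branch were 0.30 and 0.055 for mivebresib and 0.19 and -0.14 for quisinostat, so that the gap was then wider for quisinostat. With quisinostat the negative sign of the ATF4 branch median depended on scaling, and it was 0.08 by library size alone and 0.01 by upper-quartile factors.

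Library by library, the XBP1 and ATF6 branch stood at a median of 0.46 and 0.55 above the control mean (log2 CPM) in the mivebresib libraries and at 0.09 and 0.21 in the quisinostat libraries. The romidepsin libraries stood at 0.02 and 0.01, and the controls themselves at -0.15 and 0.15. Both mivebresib libraries were therefore above control replicate 2, whereas quisinostat replicate 1 was below it. For the ATF4 branch the library medians ran only from -0.20 in quisinostat replicate 2 to 0.08 in mivebresib replicate 1, and its genes moved in both directions. Without control replicate 1 the mivebresib median of the XBP1 and ATF6 branch was 0.30, and without control replicate 2 it was 0.54. For the ATF4 branch these values were 0.13 and -0.26, and without mivebresib replicate 1 it was -0.06, so the sign of that median rests on single libraries.

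**Figure D2:**
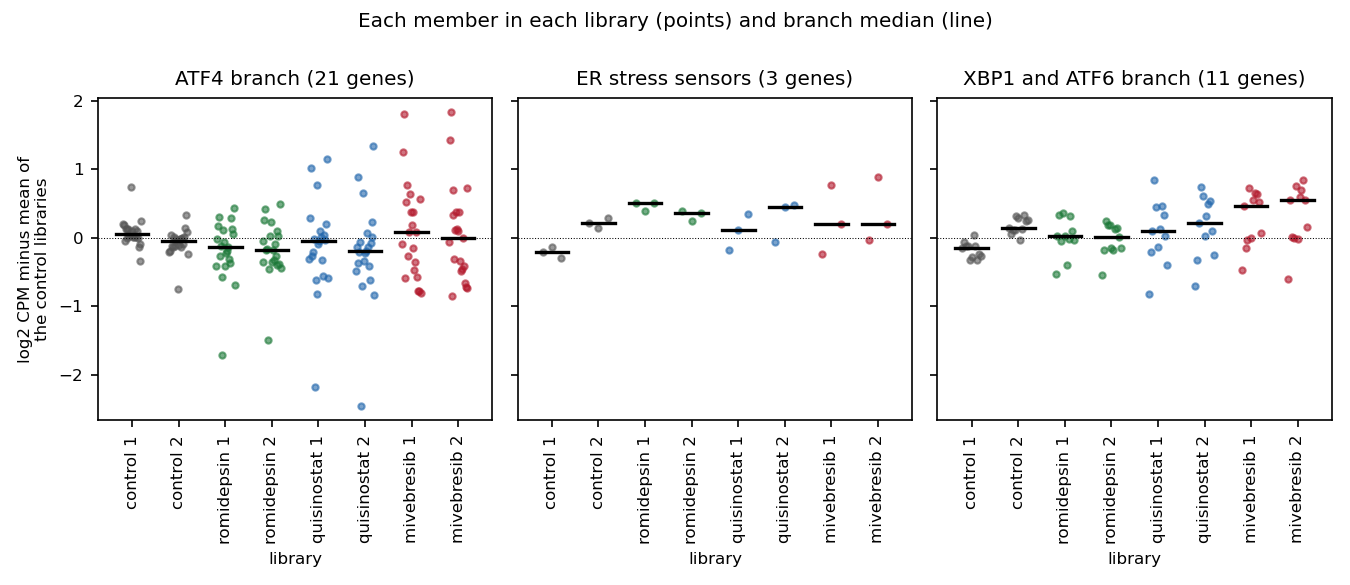
Points are members and black lines branch medians in each of the 8 libraries, as log2 CPM minus the mean of the control libraries. The mivebresib medians of the XBP1 and ATF6 branch, 0.46 and 0.55, lie above both controls, while the ATF4 branch fans out around 0 with ATF5 at the bottom under romidepsin and quisinostat and ASNS at the top under mivebresib.

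ATF4 (chr22:39519695-39522685, coordinates throughout from GENCODE 29 on GRCh38) had 250.2 and 189 CPM in the control libraries, 163 and 169 with romidepsin, 176 and 155 with quisinostat, and 204 and 208 with mivebresib. Both HDAC inhibitor groups lay below both controls, and the mivebresib libraries lay between the controls. The log2 FC was -0.41 ± 0.13 (SE) with quisinostat (adjusted p = 0.0293), -0.40 ± 0.13 with romidepsin (0.0502) and -0.09 ± 0.13 with mivebresib (0.597). The quisinostat call was lost in 9 of 16 alternatives, among them library size alone (log2 FC -0.21), without control replicate 1 (-0.20) and leaving out any single quisinostat or mivebresib library (-0.33 to -0.49). No drug raised the message of the branch's own factor at the threshold.

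DDIT3 (CHOP, chr12:57516588-57521737), the factor that links prolonged stress to cell death, had 8.82 and 6.79 CPM in control, 7.66 and 7.51 with romidepsin, and 9.43 and 7.04 with quisinostat. Mivebresib took it to 18.4 and 20.8, above all 6 other libraries, a log2 FC of 1.33 ± 0.17 (2.51-fold, adjusted p = 0.000368). Compared directly, mivebresib exceeded quisinostat by 1.25 ± 0.17 (adjusted p = 0.000316) and romidepsin by 1.37 ± 0.17 (0.000285). On its other strand DDIT3 overlaps MARS and MBD6, and whether counting used strand is not given in the sources used here. MARS, at 128 CPM in control, had a log2 FC of -0.30 with mivebresib (adjusted p = 0.079) and MBD6 one of 0.26 (0.0498).

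Among the enzymes of amino acid supply, ASNS (chr7:97852118-97872542), which makes asparagine and whose promoter holds the CARE core shown above, changed most. It had 32.2 and 34.2 CPM in control, 37.2 and 39.6 with romidepsin, 67.4 and 61.6 with quisinostat, and 116 and 118 with mivebresib. The 4 groups did not overlap and stood in that order. The log2 FC was 1.82 ± 0.08 with mivebresib (3.53-fold, adjusted p = 2.74e-06) and 0.96 ± 0.08 with quisinostat (1.94-fold, 3.65e-05), whereas the 0.21 ± 0.08 of romidepsin did not pass (0.0888). Between the HDAC inhibitors, romidepsin was lower than quisinostat by 0.75 (log2 difference -0.75 ± 0.08, adjusted p = 0.000411), and mivebresib exceeded quisinostat by 0.86 ± 0.08 (4.46e-05).

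CTH (chr1:70411218-70439851), which makes cysteine from cystathionine, rose with every drug from a low level. It had 3.68 and 4.16 CPM in control, 5.32 and 5.54 with romidepsin, 8.80 and 10.0 with quisinostat, and 5.82 and 6.51 with mivebresib. All 6 drug libraries lay above both controls. Its log2 FC was 1.26 ± 0.14 with quisinostat (adjusted p = 0.000118), 0.65 ± 0.14 with mivebresib (0.00571) and 0.47 ± 0.14 with romidepsin (0.0374), the last lost in 9 of 16 alternatives, 6 of them with a single library left out (0.41 to 0.50). Quisinostat exceeded both other drugs: romidepsin differed from it by -0.79 ± 0.13 (0.00254) and mivebresib by -0.61 ± 0.13 (0.00391).

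With mivebresib the serine and one-carbon enzymes did not move together. PSAT1, which makes phosphoserine, rose with mivebresib (log2 FC 0.38 ± 0.09, adjusted p = 0.0069), and PHGDH, which opens the same pathway, had -0.24 ± 0.09 (0.0575). PSPH, which closes it, fell with mivebresib from 74.9 and 62.3 CPM to 49.1 and 48.9 (log2 FC -0.48 ± 0.10, adjusted p = 0.00508). With romidepsin the log2 FC was -0.20 for PSAT1, -0.26 for PHGDH and -0.12 for PSPH, against 0.20 for ALDH1L2, and none of these passed. SHMT2, the mitochondrial enzyme that moves the serine carbon to folate, fell with all 3 drugs, by 0.29 (romidepsin), 0.36 (quisinostat) and 0.40 (mivebresib) (log2), and its HDAC inhibitor calls were lost when libraries were scaled by size alone, the romidepsin call also without any 1 of the 4 HDAC inhibitor libraries (-0.26 to -0.32) and the quisinostat call without quisinostat replicate 2 (-0.33). MTHFD2, the next enzyme of that folate route, fell with romidepsin (-0.38 ± 0.09, adjusted p = 0.0137, lost without either romidepsin library at -0.40 and -0.37) and quisinostat (-0.59 ± 0.09, 0.000766) but stood at 199 and 189 CPM with mivebresib against 202 and 176 in control. ALDH1L2, which oxidises mitochondrial formyl folate, fell with mivebresib from 23.4 and 23.6 CPM to 15.8 and 17.6 (-0.49 ± 0.10, adjusted p = 0.00481). The bounds of ALDH1L2 overlap C12orf45 on the opposite strand over 54414 bases. C12orf45, at 23.0 CPM in control, had a log2 FC of 0.22 with mivebresib (adjusted p = 0.0604).

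ATF5 (chr19:49928702-49933935), a sister factor of ATF4 known for the mitochondrial stress response, showed the largest fall of any member. It had 66.5 and 55.9 CPM in control, 18.5 and 21.7 with romidepsin, 13.4 and 11.1 with quisinostat, and 50.8 and 49.4 with mivebresib. Every HDAC inhibitor library was far below every control and mivebresib library. The log2 FC was -2.32 ± 0.13 with quisinostat (4.99-fold lower, adjusted p = 5.23e-06), -1.61 ± 0.13 with romidepsin (3.04-fold lower, 0.000135) and -0.29 ± 0.12 with mivebresib (0.0872). Romidepsin and quisinostat differed from each other by 0.71 ± 0.13 (adjusted p = 0.00465), and mivebresib exceeded quisinostat by 2.03 ± 0.13 (7.31e-06). ATF5 overlaps NUP62 on the opposite strand over 1062 bases, and NUP62, at 76.7 CPM in control, had a log2 FC of -0.57, -0.82 and -0.66 with romidepsin, quisinostat and mivebresib. The share of ATF5 reads that could come from NUP62 was not tested.

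PPP1R15A (GADD34, chr19:48872392-48876057), the subunit that directs the phosphatase which removes the phosphate from eIF2, also separated the HDAC inhibitors from mivebresib. Its levels were 87.9 and 85.2 CPM in control, 58.1 and 62.8 with romidepsin, 56.4 and 53.1 with quisinostat, and 91.9 and 94.0 with mivebresib. It fell with romidepsin (-0.52 ± 0.08, adjusted p = 0.00201) and quisinostat (-0.66 ± 0.08, 0.000199), and not with mivebresib (0.10 ± 0.08, 0.312). The direct differences of mivebresib were 0.76 ± 0.08 over quisinostat (7.28e-05) and 0.62 ± 0.08 over romidepsin (0.000315).

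CEBPG (chr19:33373330-33382686), a C/EBP partner of ATF4, fell with romidepsin from 73.9 and 64.1 CPM to 51.8 and 53.8 (-0.39 ± 0.09, adjusted p = 0.0165), a value of -0.26 without control replicate 1, and the call was lost without either romidepsin library (-0.36 and -0.42). It had 64.8 and 59.1 CPM with quisinostat and 77.9 and 73.9 with mivebresib, neither of which passed. CEBPB, another partner, had 56.4 CPM in control replicate 1 and 20.2 in replicate 2, so its SE was 0.39 to 0.40 in every comparison and none of its differences passed. Its drug libraries ran from 19.2 to 43.7 CPM.

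SESN2 (chr1:28259527-28282491) and DDIT4 (chr10:72273920-72276036) both restrain mTORC1 growth signaling under stress. SESN2 had 35.9 and 36.2 CPM in control, 33.2 and 32.3 with romidepsin, 35.6 and 34.7 with quisinostat, and 61.8 and 58.4 with mivebresib. The mivebresib libraries alone stood apart, at a log2 FC of 0.74 ± 0.08 (1.67-fold, adjusted p = 0.000108), and mivebresib exceeded quisinostat by 0.77 ± 0.08 (5.13e-05). DDIT4 had 12.7 and 11.9 CPM in control and 13.4 and 12.6 with romidepsin, and rose to 21.1 and 19.4 with quisinostat (0.72 ± 0.12, adjusted p = 0.00105) and to 19.2 and 15.9 with mivebresib (0.51 ± 0.12, 0.00722). The mivebresib call was lost without mivebresib replicate 1 (0.37). For DDIT4 mivebresib did not pass against quisinostat (difference -0.20, 95% confidence interval -0.46 to 0.06, adjusted p = 0.156).

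TRIB3, a pseudokinase that feeds back on ATF4, rose with mivebresib to 30.2 and 26.6 CPM from 23.1 and 19.2 (0.43 ± 0.11, adjusted p = 0.0142). That call was lost without mivebresib replicate 1 (0.33). CHAC1, which breaks down glutathione and whose promoter also holds the CARE core, went the other way. It had 63.8 and 53.5 CPM in control, 72.3 and 78.4 with romidepsin, 48.8 and 45.0 with quisinostat, and 39.0 and 32.4 with mivebresib. The fall with mivebresib passed (-0.72 ± 0.12, adjusted p = 0.00166), the quisinostat value was at the threshold (-0.32 ± 0.12, 0.0496, lost in 10 of 16 alternatives, with -0.19 without control replicate 1), and romidepsin did not pass at 0.36 ± 0.12 (0.05). Mivebresib lay below romidepsin by a log2 difference of -1.08 ± 0.12 (0.000176). The pair of ATF4 branch promoters with the CARE core, ASNS and CHAC1, thus belonged to genes with opposite changes under mivebresib.

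NUPR1 (chr16:28532708-28539174), a small stress-induced chromatin protein, fell with each drug. It had 186 and 133 CPM in control, 97.5 and 116 with romidepsin, 104 and 88.2 with quisinostat, and 89.6 and 94.4 with mivebresib, all 6 below both controls. Log2 FC values were -0.58 ± 0.16 (adjusted p = 0.0279), -0.73 ± 0.16 (0.00558) and -0.79 ± 0.16 (0.0044), and no pair of drugs passed. Without control replicate 1 they were -0.30, -0.47 and -0.53, and the romidepsin call was lost, as it was without any 1 of the romidepsin or mivebresib libraries (-0.46 to -0.71).

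Of the secreted and surface members, STC2 (chr5:173314713-173329503), a secreted glycoprotein, had 7.83 and 12.5 CPM in control, 10.3 and 7.54 with romidepsin, 11.4 and 11.6 with quisinostat, and 5.74 and 6.01 with mivebresib. The mivebresib libraries were the lowest of the 8, at -0.79 ± 0.23 (adjusted p = 0.022), a call lost without control replicate 2 (-0.42) or either mivebresib library (-0.76 and -0.82). Mivebresib lay below quisinostat by -0.97 ± 0.23 (0.00629). VLDLR, a lipoprotein receptor, fell with mivebresib from 238 and 287 CPM to 153 and 165 (-0.73 ± 0.11, adjusted p = 0.000851) and did not pass with romidepsin (285 and 265) or quisinostat (257 and 264).

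**Figure D3:**
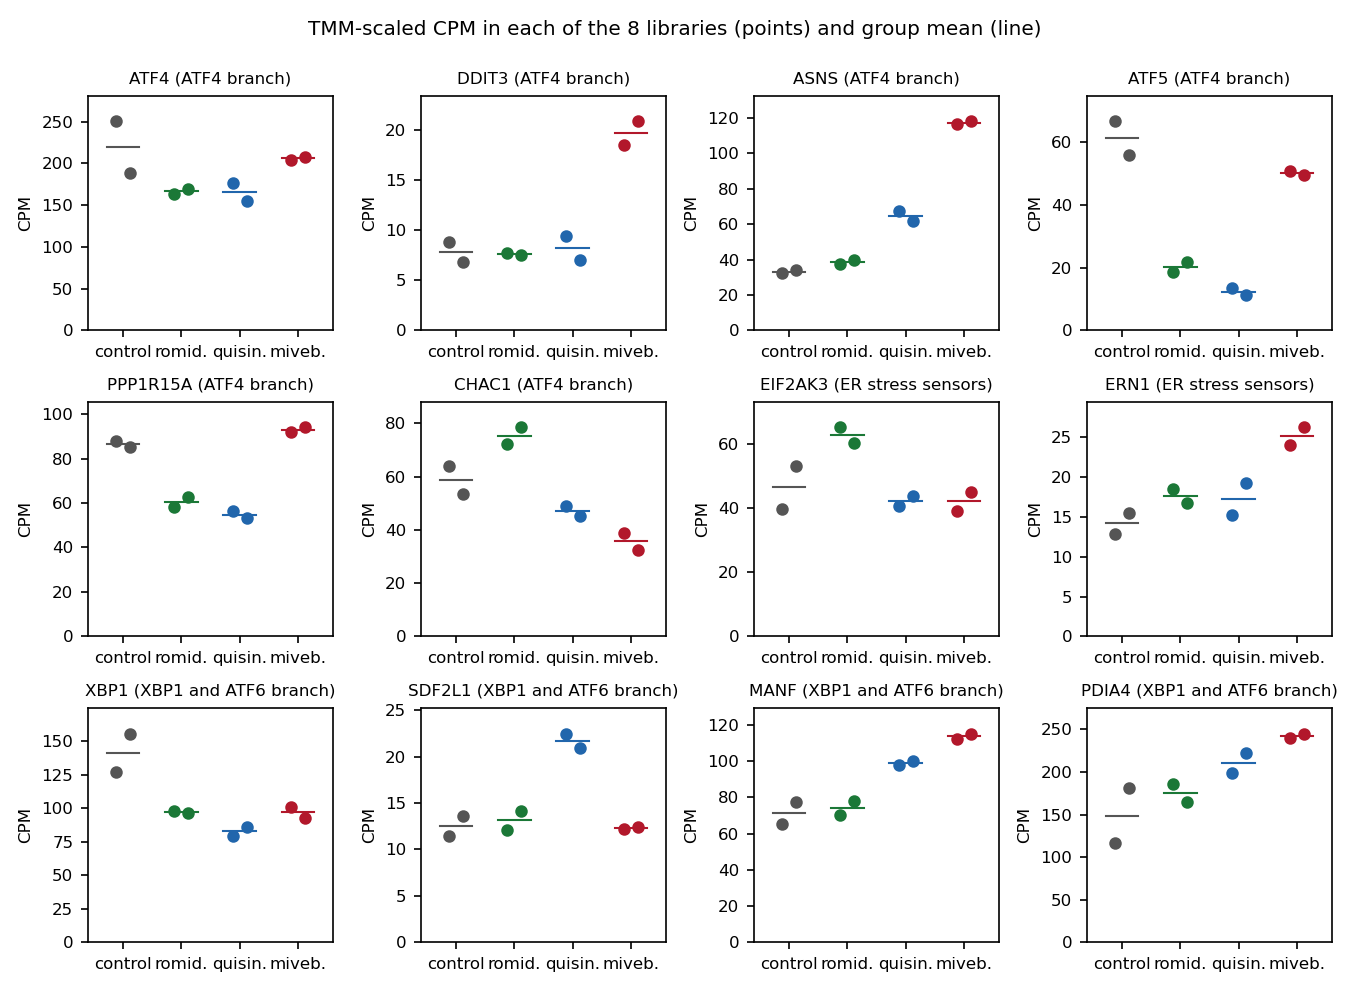
TMM-scaled CPM of 12 members, each point a library and each line a group mean, with every axis starting at 0. DDIT3 and ASNS are highest in both mivebresib libraries (18.4 and 20.8, and 116 and 118), ATF5 and PPP1R15A are lowest in the 4 HDAC inhibitor libraries, and the controls of ATF4 and PDIA4 lie as far apart as 250.2 from 189 and 116 from 182.

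The sensors differed in which drug, if any, gave a change that passed, while all 3 had a log2 FC above 0 with romidepsin. EIF2AK3 (PERK, chr2:88556741-88627576) had 39.9 and 53.3 CPM in control, 65.3 and 60.4 with romidepsin, 40.8 and 44.0 with quisinostat, and 39.3 and 45.1 with mivebresib. The romidepsin libraries lay above both controls, at 0.43 ± 0.14 (adjusted p = 0.0449), and this call was lost in 8 of 16 alternatives, with 0.26 without control replicate 1, 0.65 without control replicate 2, and 0.37 to 0.49 where the loss came from leaving out a drug library. Between the drugs, romidepsin exceeded quisinostat by 0.57 ± 0.14 (0.0136), and mivebresib lay below romidepsin by -0.57 ± 0.14 (0.00891).

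ERN1 (IRE1, chr17:64039142-64130819) had 12.8 and 15.5 CPM in control, 18.4 and 16.7 with romidepsin, 15.2 and 19.2 with quisinostat, and 24.0 and 26.2 with mivebresib. It rose with mivebresib (0.83 ± 0.14, 1.77-fold, adjusted p = 0.00177), which also exceeded quisinostat (0.55 ± 0.14, 0.00953) and romidepsin (0.51 ± 0.14, 0.0154). Against control ERN1 did not pass with romidepsin (0.31 ± 0.14, 0.132) or quisinostat (0.28 ± 0.14, 0.131). ATF6 (chr1:161766294-161964070) had 57.7 and 86.5 CPM in control, 101 and 90.7 with romidepsin, 89.4 and 98.7 with quisinostat, and 80.8 and 81.4 with mivebresib, and no comparison passed. The log2 FC of ATF6 was 0.41 ± 0.17 (0.0954) in romidepsin, 0.38 ± 0.17 (0.0828) in quisinostat and 0.17 ± 0.17 (0.433) in mivebresib. The controls alone differed by 0.58 on the log2 scale.

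XBP1 (chr22:28794555-28800597), the factor that ERN1 activates by splicing, fell with all 3 drugs. It had 127 and 156 CPM in control, 97.8 and 96.4 with romidepsin, 79.4 and 86.5 with quisinostat, and 101 and 92.9 with mivebresib, each drug library below both controls. The log2 FC was -0.54 ± 0.11 (adjusted p = 0.00692), -0.77 ± 0.11 (0.000517) and -0.54 ± 0.11 (0.00388). The romidepsin call was lost without either romidepsin library (-0.55 and -0.53). No pair of drugs passed, and the 95% confidence interval ran from -0.25 to 0.25 for mivebresib over romidepsin and from -0.02 to 0.48 for either of them over quisinostat. Under mivebresib the message of XBP1 was therefore lower while that of its activator ERN1 was higher, and the counts sum spliced and unspliced XBP1.

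Of the XBP1 and ATF6 branch, mivebresib raised MANF, CRELD2, HERPUD1, PDIA4, SEL1L and CALR. MANF (chr3:51385047-51389397), a small ER protein that binds the chaperone HSPA5 and can be secreted, had 65.3 and 77.3 CPM in control, 70.4 and 78.0 with romidepsin, 97.9 and 99.8 with quisinostat, and 112 and 115 with mivebresib. It rose with mivebresib (0.67 ± 0.10, adjusted p = 0.000789) and quisinostat (0.47 ± 0.10, 0.00411), while romidepsin overlapped the control and lay below quisinostat (-0.41 ± 0.10, 0.0126). CRELD2 (chr22:49918167-49927540), a small ER-resident protein known as a target of ER stress, had 23.4 and 22.3 CPM in control, 17.3 and 20.2 with romidepsin, 25.1 and 28.4 with quisinostat, and 33.5 and 34.6 with mivebresib. Its rise of 0.57 ± 0.10 with mivebresib passed (adjusted p = 0.00242), and mivebresib exceeded romidepsin by 0.86 ± 0.11 (0.000274). CRELD2 overlaps ALG12 on the opposite strand over 292 bases, and ALG12, at 19.0 CPM in control, had a log2 FC of 0.46 with mivebresib (adjusted p = 0.0149).

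SDF2L1 (chr22:21642261-21644298), a lumenal partner of HSPA5 and DNAJ co-chaperones, rose with quisinostat and passed with neither other drug. It had 11.5 and 13.6 CPM in control, 12.1 and 14.2 with romidepsin, 22.5 and 20.9 with quisinostat, and 12.2 and 12.4 with mivebresib. The log2 FC with quisinostat was 0.79 ± 0.12 (1.73-fold, adjusted p = 0.000694), and quisinostat also differed from romidepsin (romidepsin over quisinostat -0.72 ± 0.12, 0.00242) and from mivebresib (-0.81 ± 0.12, 0.000511). HERPUD1 (chr16:56932048-56944863), a membrane scaffold of ER-associated degradation that takes input from ATF4 as well, had 40.2 and 43.6 CPM in control, 42.5 and 37.0 with romidepsin, 36.2 and 33.5 with quisinostat, and 57.6 and 61.1 with mivebresib. It rose with mivebresib (0.50 ± 0.10, adjusted p = 0.0032), and its fall with quisinostat (-0.27 ± 0.10, 0.0474) was lost in 11 of 16 alternatives, with -0.21 without control replicate 2 and -0.06 by library size alone. These are the members with ERSE-II in their promoters, and mivebresib raised HERPUD1 without a change that passed in SDF2L1 (-0.02 ± 0.12, 0.905).

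PDIA4 (chr7:149003062-149028641), a disulfide isomerase, had 116 and 182 CPM in control, 186 and 165 with romidepsin, 199 and 222 with quisinostat, and 239.7 and 245 with mivebresib. It rose with mivebresib (0.70 ± 0.18, adjusted p = 0.0137) and, at the threshold, with quisinostat (0.50 ± 0.18, 0.0483). Without control replicate 1 these were 0.42 and 0.21, and without control replicate 2 they were 1.06 and 0.85. The quisinostat call was lost when any single library other than control replicate 2 was left out (0.21 to 0.58), and the mivebresib call without either mivebresib library (0.71 and 0.69). SEL1L (chr14:81471549-81533861), the adaptor of the ubiquitin ligase that clears misfolded ER proteins, had 136 and 213 CPM in control, 212 and 187 with romidepsin, 214 and 246 with quisinostat, and 264 and 307 with mivebresib. Its rise with mivebresib was 0.71 ± 0.20 (adjusted p = 0.0175), with 0.42 without control replicate 1 and 1.07 without control replicate 2, and it was lost without mivebresib replicate 2 (0.60). For both genes control replicate 2 was more than 1.5 times replicate 1, and the mivebresib libraries lay above both.

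CALR rose with mivebresib to 1089 and 1108 CPM from 641 and 893 (0.52 ± 0.15, adjusted p = 0.0218). The value was 0.30 without control replicate 1, and the call was lost without either mivebresib library (0.53 and 0.51). It was also lost with only the 4 libraries compared (0.52). CANX, the other lectin chaperone, had 2075 and 2208 CPM with mivebresib against 1652 and 2382 in control and passed with no drug. PDIA6 (302 to 449 CPM over all libraries) and EDEM1 (128 to 179.7 CPM), a mannosidase-like protein that marks glycoproteins for removal, passed with no drug either. Of the ERSE carriers, CALR and CRELD2 rose with mivebresib, XBP1 fell and CANX did not pass.

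The drugs were next compared directly. The control levels do not enter these differences, but the spread behind their SE and p was estimated over all 8 libraries, controls included. Between the HDAC inhibitors, 3 members were higher with romidepsin (ATF5, CHAC1 and EIF2AK3) and 7 were higher with quisinostat (ASNS, CTH, DDIT4, PHGDH, SDF2L1, CRELD2 and MANF), where 14.3% and 20.8% of all tested genes passed. Mivebresib exceeded quisinostat in 13 members and lay below it in 8, against 26.0% and 31.4% of all tested genes. Mivebresib exceeded romidepsin in 15 members and lay below it in 6, against 23.5% and 25.0%. By branch, mivebresib was higher than romidepsin in 10 of 21 ATF4 branch members and lower in 4, and higher in 4 of 11 XBP1 and ATF6 branch members and lower in 1. Against quisinostat the split was 9 and 7 in the ATF4 branch and 3 and 1 in the other. Without control replicate 1, romidepsin was higher than quisinostat in 8 members and mivebresib higher than quisinostat in 20, and without control replicate 2 these were 6 and 20. Over all tested genes these counts grew as well when either control library was left out. Scaled by library size alone, mivebresib exceeded quisinostat in 9 members and lay below it in 11. Over all tested genes this scaling gave 2547 higher and 5918 lower, instead of 3926 and 4741.

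**Figure D4:**
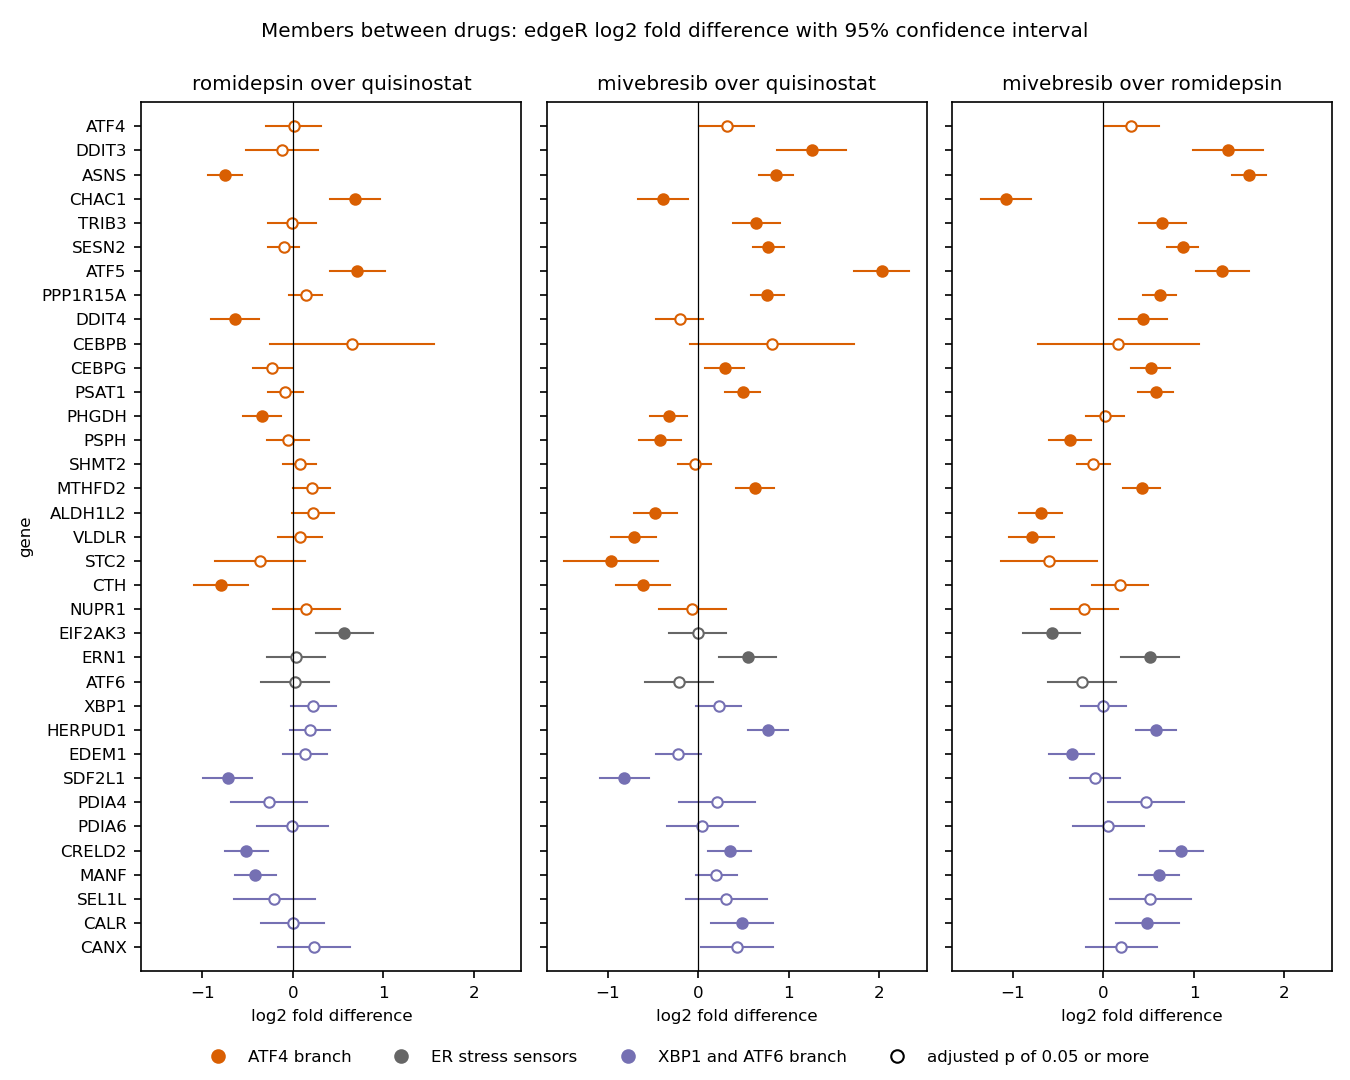
Log2 difference of each member between drugs with its 95% confidence interval from edgeR, filled where the adjusted p was below 0.05. ATF5 (2.03), DDIT3 (1.25) and ASNS (0.86) lie farthest to the right for mivebresib over quisinostat, and SDF2L1 (-0.81) and STC2 (-0.97) farthest to the left.

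Other genes of the same routes were counted from a list of 91 genes that are not members, of which 90 were tested and FGF21 was not. Their counts stand beside shares of all tested genes of 15.1% raised and 15.4% lowered with romidepsin, 28.0% and 25.0% with quisinostat, and 22.1% and 24.0% with mivebresib, and several lists lie near them. Of 24 further ATF4 arm genes, romidepsin raised 4 and lowered 8, quisinostat raised 3 and lowered 7, and mivebresib raised 7 and lowered 8. Of 12 cytosolic tRNA synthetases, a class of ATF4 targets, romidepsin lowered 1, quisinostat lowered 6 and raised none, and mivebresib raised 1 and lowered 3. A list of 16 genes around eIF2 held the other eIF2 kinases with their regulators GCN1 and IMPACT, the subunits of eIF2 and of its exchange factor eIF2B, the phosphatase subunit PPP1R15B, and OMA1 and DELE1, which relay mitochondrial stress. Of these romidepsin lowered 4 and raised none, quisinostat lowered 8 and raised none, and mivebresib raised 3 and lowered 4. Of 38 further ER folding, transport and degradation genes, romidepsin raised 3 and lowered none, quisinostat raised 5 and lowered 4, and mivebresib raised 8 and lowered 6. With quisinostat the median log2 FC was -0.25 over the tRNA synthetases and -0.28 over the eIF2 list. Scaling by library size alone put the quisinostat median of all tested genes at 0.20, and the counts of these lists under that scaling are not reported. The medians of the ER list were 0.02, -0.08 and 0.06, beside 0.50 for the 11 members of the XBP1 and ATF6 branch with mivebresib. Over the ER list control replicate 2 exceeded replicate 1 by a median of 0.49 (log2), against 0.29 over the XBP1 and ATF6 branch.

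**Figure D5:**
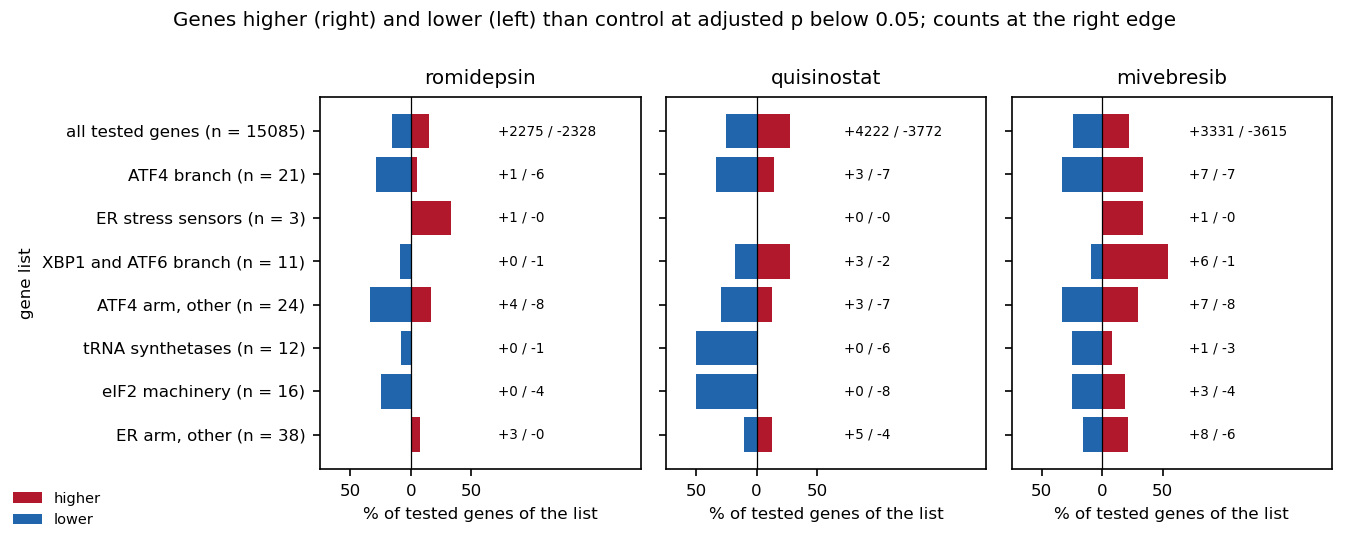
Percentage of the tested genes of each list that were higher (red, right) or lower (blue, left) than control at an adjusted p below 0.05, with the counts printed beside the bars. The XBP1 and ATF6 branch has 6 of 11 members higher with mivebresib, where 22.1% of all tested genes were higher. With quisinostat 6 of 12 tRNA synthetases and 8 of 16 eIF2 machinery genes are lower, where 25.0% of all tested genes were lower.

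HSPA5 (BiP), the main ER chaperone, had 517 and 799.8 CPM in control, 921 and 760.0 with romidepsin, 765 and 886 with quisinostat, and 1361 and 1449 with mivebresib. It rose with mivebresib (log2 FC 1.09 ± 0.20, adjusted p = 0.00253), which exceeded quisinostat by 0.77 ± 0.20 (0.0106) and romidepsin by 0.74 ± 0.20 (0.015). ATF3, an early factor downstream of ATF4, had 15.0 and 11.6 CPM in control and rose to 26.2 and 22.3 with romidepsin, 23.3 and 20.03 with quisinostat, and 43.7 and 44.8 with mivebresib, where the log2 FC was 1.73 ± 0.14 (adjusted p = 3.8e-05). GDF15, a secreted stress cytokine, split the drugs most. It rose from 102 and 133 CPM to 311 and 292 with romidepsin (1.36 ± 0.12, adjusted p = 0.000195), reached 152 and 161 with quisinostat (0.41 ± 0.12, 0.0206) and fell to 58.8 and 59.1 with mivebresib (-0.999 ± 0.124, 0.000315).

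The growth arrest gene GADD45A rose with mivebresib from 128 and 109.9 CPM to 394 and 380.3 (1.70 ± 0.10), and SLC6A9, a glycine transporter, fell with mivebresib (-1.60 ± 0.18) and with romidepsin (-0.97 ± 0.17). ERO1B, an oxidase that supplies disulfide bonds, rose with quisinostat from 5.92 and 9.75 CPM to 35.4 and 38.1 (2.23 ± 0.23). FKBP14, an ER prolyl isomerase, rose with romidepsin (0.93 ± 0.16) and also with quisinostat (1.06 ± 0.16), and its value with mivebresib was lower than control (-0.61 ± 0.16). WFS1, an ER membrane protein with 29.9 and 46.5 CPM in control, rose with quisinostat (0.86 ± 0.18) and mivebresib (0.91 ± 0.18). All of these passed an adjusted p of 0.05 by edgeR's quasi-likelihood test. Their calls, like those of HSPA5, ATF3 and GDF15, are from the fit of all 8 libraries. Whether they hold under the alternatives is not reported.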

How the data were processed

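Total RNA of MP38 cells from 8 wells was sequenced, and the authors deposited read counts per gene symbol, without normalization, for 35238 rows. The genome build is hg38 per the submitters' processing notes, and the aligner, annotation and strand setting of the counting are not given in the sources used here. Log CPM and quantile-normalized tables of the same libraries were not used, and no comparison columns of the authors were used. Counts were fitted with edgeR 4.0.16 in R 4.3.3: TMM factors, filterByExpr by group (15085 genes kept), robust quasi-likelihood fit of all 8 libraries in a single model (biological coefficient of variation 0.0938), and Benjamini-Hochberg adjustment over all tested genes. SE and 95% confidence intervals follow from the F statistic. CPM are scaled by TMM factors, log2 CPM used a prior count of 2, and CPM per kilobase divides by the union of exons in GENCODE 29. Depth differed little between libraries (28483235 to 29359024 counts), and each group held 2 libraries. The fit was tested on simulated data with a common spread in all groups, so the wider difference between the control replicates was not part of that test.

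The members and the gene lists were chosen with earlier results of these data known. Values in full are given for ATF4, DDIT3, XBP1, ATF6, EIF2AK3 and ERN1 and, per branch and drug, for the 5 members with the largest change at an adjusted p below 0.05, and from the list of other pathway genes for HSPA5 and the 3 largest changes per drug. The alternatives were library size alone, upper-quartile factors, DESeq2 1.42.0, limma-voom (limma 3.58.1), dropping the low-count filter or raising it to a mean CPM of 5, a fit on just the 4 libraries compared, a replicate block, each library left out in turn, a log2 FC beyond 1.5, and HERPUD1 moved to the ATF4 branch. Motifs were searched in RefSeq promoters in Python 3.11.15 with pandas 2.3.3, and figures were drawn with matplotlib 3.10.9.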

Additional observations from a re-analysis of the deposited data

How the results depend on the processing

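The limits of these results are 2 libraries per group and controls that differ from each other. Over 46 results of members that passed and 16 alternatives each, 0 of 736 values reversed, 645 kept their call and 91 lost it, and 28 of the 46 results kept their call throughout. Of 59 results that did not pass, 39 passed under some alternative. The alternatives refit the same libraries, and some leave out only a library of a drug outside the comparison. Few reversals could arise in this way, and their absence says little about new wells. Leaving out a library leaves a lone sample that is assumed to vary like the other groups. Replicate numbers were not taken to pair the libraries: the correlation of deviations from the group means ran from -0.16 to 0.16 over the 6 pairs of groups. Whether libraries of different groups shared a batch was not tested. With the replicate block, 3 members rose and 8 fell with romidepsin, 6 and 8 with quisinostat, and 14 and 9 with mivebresib, and the branch medians were -0.17 and 0.04, -0.12 and 0.15, and 0.04 and 0.50 for the ATF4 and the XBP1 and ATF6 branch. The cause was not tested for any change below.

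With romidepsin, 2 members rose in the fit reported and 5 by library size alone, by upper-quartile factors and at a mean CPM of at least 5, against 0 with only the 4 libraries of the comparison and 0 beyond a log2 FC of 1.5. The 7 that fell became 3 with only the 4 libraries and 1 beyond 1.5. Over all tested genes, 2275 rose and 2328 fell with romidepsin in the fit reported. These were 2755 and 1684 by library size alone, 2849 and 1646 by upper-quartile factors, and 1393 and 1057 with only the 4 libraries. The romidepsin median of the ATF4 branch was -0.11, -0.10 and -0.12 by library size, upper-quartile factors and the mean CPM filter. With quisinostat, 12 members rose and 5 fell by library size alone, and beyond 1.5 these were 0 and 1. By library size alone 5612 of all tested genes rose and 2125 fell, instead of 4222 and 3772. The quisinostat median of the ATF4 branch turned to 0.0838 by library size alone and 0.0133 by upper-quartile factors and was -0.0218 with the mean CPM filter, and that of the XBP1 and ATF6 branch was 0.35 by library size alone. By construction these scalings move all genes together. With mivebresib, 1 member rose and 0 fell beyond 1.5, and moving HERPUD1 to the ATF4 branch took the median of the XBP1 and ATF6 branch to 0.30. Fitted on only the 4 libraries compared, 8 members were higher with romidepsin than with quisinostat and 20 higher with mivebresib than with quisinostat. Over all tested genes these counts went from 2161 to 3554 and from 3926 to 4780.

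Leaving out each library in turn gave 0 to 8 members raised and 2 to 13 lowered with romidepsin, 5 to 12 and 5 to 11 with quisinostat, and 10 to 17 and 7 to 11 with mivebresib. The counts over all tested genes, against control and between drugs, moved in these fits as well. Medians of the ATF4 branch ran from -0.24 to -0.12 with romidepsin, from -0.20 to -0.05 with quisinostat and from -0.26 to 0.13 with mivebresib. Those of the XBP1 and ATF6 branch ran from -0.11 to 0.19, from 0.03 to 0.26 and from 0.30 to 0.54. Between drugs, 2 to 8 members were higher and 4 to 9 lower for romidepsin over quisinostat, 9 to 20 and 5 to 10 for mivebresib over quisinostat, and 12 to 18 and 3 to 9 for mivebresib over romidepsin.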
